A study of Gallus gallus with 6 samples.

Results

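The planar polarity and noncanonical Wnt receptor genes VANGL1, VANGL2, PRICKLE1, PRICKLE2, RYK, ROR1, ROR2, PTK7, CELSR1 and CELSR3 were taken through every probe set whose annotation named 1 of them and no other gene. This gave 21 of the 38439 probe sets tested and 10 of the 13009 genes that such probe sets covered. Where a gene had several probe sets, the one with the highest mean over all arrays stood for it, and the others are given beside it, numbered by their mean signal. VANGL1, PRICKLE1, RYK, ROR1 and PTK7 had 1 probe set each, PRICKLE2 had 2, VANGL2, ROR2 and CELSR1 had 3 each, and CELSR3 had 5.

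Planar cell polarity is the system by which cells of a sheet align their structures across the tissue, and its core parts face each other at cell contacts. CELSR1 and CELSR3 are atypical cadherins that bridge neighbouring cells, VANGL1 and VANGL2 are four-pass membrane proteins, and PRICKLE1 and PRICKLE2 are LIM-domain proteins that bind VANGL inside the cell. RYK, ROR1, ROR2 and PTK7 are single-pass membrane proteins with kinase-like domains that take part in Wnt signalling outside the β-catenin branch. In mouse, Celsr3, Fzd3 and Vangl2 are needed for the anterior turn of commissural axons after the midline, and Ryk for the repulsion of corticospinal axons by Wnt5a.

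The arrays compared 3 TcfEnR pools with 3 control pools of sorted chick spinal neural tube cells at embryonic day 4. All embryos were wild-type White Leghorn and were electroporated at embryonic day 3, 24 h before collection, with Cre recombinase under a TUBB3 enhancer and a Cre-dependent vector. In the TcfEnR group that vector carried the DNA-binding HMG box of Tcf3 joined to the engrailed repressor, followed by membrane GFP, and in the control group it carried membrane GFP alone. GFP+ cells were sorted after trypsin. Every library was thus meant to hold the cells of a pool of embryos in which the enhancer had been active by then. The comparison asked which transcripts depend on Tcf-dependent transcription in these cells.

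Values are log2 signals made by robust multi-array average (RMA), so that a difference of 1 is a 2-fold change in signal, and levels are compared only within a probe set. Arrays correlated at 0.978 to 0.991 within groups and at 0.888 to 0.917 between them. A probe set whose group mean lay below 5.325, less than 2 log2 units above the 5th percentile of all values, is called near the bottom of the range. Most markers of neurons were lower in the TcfEnR pools. STMN2, which fell the most of those measured, was 7.33, 7.11 and 7.23 there, against 12.40, 11.59 and 10.48 in control pools. TUBB3, whose enhancer drove Cre, fell less, at 9.76, 9.80 and 9.48 in TcfEnR pools, against 11.69, 11.51 and 10.76 in control pools. In bulk samples, fewer cells of a type and less RNA per cell cannot be told apart.

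Of the 10 planar polarity and receptor genes, 5 had less transcript and 1 had more in TcfEnR cells, and no change among them reached the 4-fold threshold of the methods. ROR2, PRICKLE1, VANGL2, CELSR1 and VANGL1 fell, PRICKLE2 rose, and CELSR3, RYK, ROR1 and PTK7 did not pass the test of their leading probe sets. A probe set was called at an adjusted p of 0.05 in limma with Benjamini-Hochberg adjustment over all 38439 probe sets. Of the 21 probe sets, 9 were lower in TcfEnR, against a background of 26.2% of all probe sets, and 3 were higher, against 26.5%. By gene, 5 of 10 were lower, against 32.6% of all genes, and 1 of 10 was higher, against 25.0%. On the brightest probe sets, the TcfEnR and control arrays did not overlap for 5 genes that were lower, against 37.3% of all genes, and for 1 that was higher, against 28.8%. The median log2 fold change was −0.56 over the 10 genes and −0.09 over all genes.

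No probe set of these genes passed 4-fold in either direction by limma, against 2.96% of all probe sets lower and 1.47% higher. At an unadjusted p of 0.05, 10 of the 21 were lower and 3 were higher. The share of all probe sets was not taken at that unadjusted threshold, so that these counts have no background to stand against. The count of lower probe sets depended on the scaling, since with quantile normalization repeated on the deposited values it was 5 of 21, or 23.8%, against 22.8% of all probe sets. It was also 5 without TcfEnR replicate 1, or 23.8%, against 21.9% of all probe sets. Repeating the normalization left the count of lower genes at 5 of 10, against 25.1% of all genes.

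**Figure D1:**
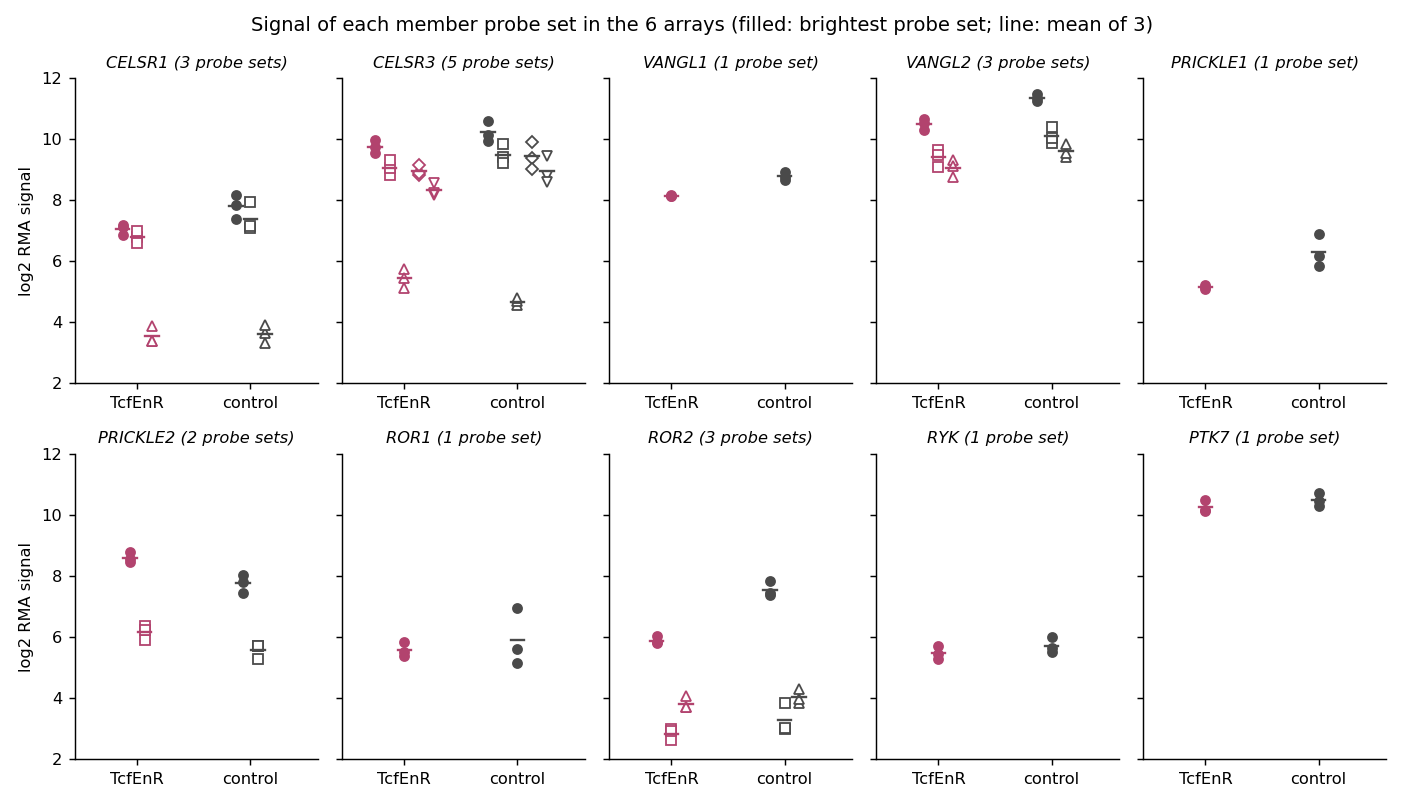
Log2 RMA signal (vertical axis) of all 21 probe sets of the 10 genes in every array, with TcfEnR pools to the left of control pools, filled points for the brightest probe set of a gene, open symbols for its others and lines at the means of 3 pools. On the brightest probe sets the 3 TcfEnR values lie below the 3 control values for ROR2, PRICKLE1, VANGL1, VANGL2 and CELSR1 and above them for PRICKLE2, and the groups overlap for the other 4 genes.

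ROR2, a receptor tyrosine kinase that binds WNT5A, had the deepest fall of the 10 genes on their brightest probe sets. Its brightest probe set read 5.79, 6.04 and 5.82 in TcfEnR pools, against 7.37, 7.45 and 7.83 in control pools. The groups lay more than 1 log2 unit apart with little spread within either. That is a log2 fold change of −1.67 (SE 0.16, 95% confidence interval −2.03 to −1.30, adjusted p 5.66e-05, limma), which left the TcfEnR signal at 31.5% of control. Among all genes, 5.11% had a log2 fold change as low or lower. The fall held without any 1 array, between −1.76 and −1.53, and was −1.67 again with quantile normalization repeated.

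The other probe sets of ROR2 carried little signal in either group. They averaged 2.83 ± 0.20 in TcfEnR pools and 3.27 ± 0.49 in control pools, and 3.82 ± 0.20 in TcfEnR pools and 4.04 ± 0.24 in control pools (SD, n = 3 each), both near the bottom of the range. Neither passed the test, at log2 fold changes of −0.44 (adjusted p 0.144, limma) and −0.22 (adjusted p 0.292, limma). The call on ROR2 therefore rested on 1 probe set. With the mean of all probe sets of each gene, ROR2 stood at −0.78 (adjusted p 0.00455, limma), and PRICKLE1, at −1.14, was deeper.

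ROR1, the close relative of ROR2, was read by 1 probe set low in the range. It gave 5.82, 5.50 and 5.39 in TcfEnR pools, against 5.15, 6.96 and 5.60 in control pools. Control replicate 2 stood far above the other 5 arrays. The log2 fold change of −0.33 (SE 0.39, 95% confidence interval −1.21 to 0.55, adjusted p 0.5, limma) became 0.20 (SE 0.20, adjusted p 0.454) without that array. The interval still holds a fall or a rise of more than 0.5, so that ROR1 cannot be said to have stayed level.

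Control replicate 2 was also the array with the highest summed signal of 13 mesenchyme markers, at 8990 on the linear scale, against 2121 and 4628 in the other control pools and 3131 to 3566 in TcfEnR pools. Among them TWIST1, a mesenchyme transcription factor, read 8.24, 6.57 and 7.23 in TcfEnR pools and 9.06, 10.87 and 7.47 in control pools. Its groups overlapped, and its adjusted p was 0.0695 (limma). Of these 13 markers, 2 were lower, none higher and 11 not called in TcfEnR, against 32.6% of all genes lower and 25.0% higher. In both groups 4 of them were near the bottom of the range. In control replicate 1, where TWIST1 was above every TcfEnR pool, ROR1 was at its lowest of the 6 arrays (5.15). The part of these markers in the ROR1 values was not tested.

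RYK, a Wnt receptor whose kinase domain is thought to be inactive, also read low in the range. Its signal was 5.70, 5.29 and 5.43 in TcfEnR pools, against 5.52, 6.0 and 5.64 in control pools. The groups overlapped, and the log2 fold change of −0.24 (SE 0.17, 95% confidence interval −0.64 to 0.15, adjusted p 0.261, limma) was within the spread of the pools.

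PTK7, a pseudokinase that regulates planar polarity in vertebrates, was high in the range. It read 10.13, 10.51 and 10.18 in TcfEnR pools, against 10.45, 10.72 and 10.31 in control pools. The groups overlapped, with replicate 2 the highest of each. Its log2 fold change was −0.22 (SE 0.16, 95% confidence interval −0.59 to 0.15, adjusted p 0.288, limma), and it was 0.09 (adjusted p 0.646) with quantile normalization repeated, so that not even its sign was settled. A fall as deep as that of ROR2 lay outside the interval.

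VANGL2, whose loss in mouse leaves the neural tube open, fell on all 3 of its probe sets. The brightest read 10.30, 10.67 and 10.55 in TcfEnR pools, against 11.35, 11.25 and 11.50 in control pools. Every TcfEnR pool lay below every control pool. The log2 fold change was −0.86 (SE 0.15, 95% confidence interval −1.19 to −0.53, adjusted p 0.00127, limma), which left 55.1% of the control signal.

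The second VANGL2 probe set gave 9.08, 9.64 and 9.50 in TcfEnR pools and 9.89, 10.06 and 10.42 in control pools, a log2 fold change of −0.72 (adjusted p 0.0124, limma). The third gave 8.77, 9.31 and 9.13 in TcfEnR pools and 9.43, 9.56 and 9.86 in control pools, a log2 fold change of −0.55 (adjusted p 0.0305, limma). TcfEnR replicate 1 was the lowest array on all 3 probe sets. With quantile normalization repeated, the brightest probe set kept its call at −0.58 (adjusted p 0.0112), while the second stood at −0.42 (adjusted p 0.0936) and the third at −0.26 (adjusted p 0.261). The second also lost its call without TcfEnR replicate 1 (−0.56), and the third without TcfEnR replicate 1 (−0.39), TcfEnR replicate 3 (−0.58), control replicate 2 (−0.57) or control replicate 3 (−0.42).

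VANGL1, its relative, showed the least spread of the 10 genes among TcfEnR pools, with an SD of 0.03 log2 units. It read 8.14, 8.19 and 8.13 in TcfEnR pools, against 8.92, 8.75 and 8.68 in control pools. The groups did not overlap, and the log2 fold change was −0.63 (SE 0.13, 95% confidence interval −0.92 to −0.34, adjusted p 0.00308, limma), leaving 64.5% of the control signal. The fall was −0.41 (adjusted p 0.024) with quantile normalization repeated.

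The PRICKLE genes moved in opposite directions. PRICKLE1 read 5.17, 5.21 and 5.10 in TcfEnR pools, against 6.88, 6.19 and 5.83 in control pools. The TcfEnR values lay close together near the bottom of the range, while the control pools spread over about 1 log2 unit. The log2 fold change was −1.14 (SE 0.24, 95% confidence interval −1.67 to −0.60, adjusted p 0.00367, limma), at 45.5% of the control signal. On a probe set that is near the bottom in TcfEnR, the log2 scale may leave little room for a deeper fall, which was not tested.

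PRICKLE2 rose on both of its probe sets. The brighter read 8.56, 8.46 and 8.80 in TcfEnR pools, against 8.05, 7.81 and 7.43 in control pools. Its log2 fold change was 0.84 (SE 0.18, 95% confidence interval 0.43 to 1.25, adjusted p 0.00426, limma), a signal 1.79 times that of control. The dimmer averaged 6.15 ± 0.23 in TcfEnR pools and 5.56 ± 0.26 in control pools (SD, n = 3 each), with a log2 fold change of 0.59 (adjusted p 0.02, limma). Both kept their calls with quantile normalization repeated, at 1.03 (adjusted p 0.00116) and 0.50 (adjusted p 0.0435). The dimmer lost its call without TcfEnR replicate 2 (adjusted p 0.0799), TcfEnR replicate 3 (0.0632) or control replicate 1 (0.0574).

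CELSR1, which in mouse polarises epithelia such as skin and the neural plate, fell on the 2 of its 3 probe sets that carried signal. The brightest read 7.20, 6.85 and 7.13 in TcfEnR pools, against 7.39, 7.85 and 8.19 in control pools. The groups did not overlap, but TcfEnR replicate 1 and control replicate 1 were close to each other. Its log2 fold change was −0.75 (SE 0.21, 95% confidence interval −1.22 to −0.29, adjusted p 0.0136, limma), and without TcfEnR replicate 2 it was −0.65 (adjusted p 0.058), no longer called.

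The second CELSR1 probe set gave 6.81, 6.60 and 6.98 in TcfEnR pools and 7.10, 7.17 and 7.94 in control pools. Its log2 fold change of −0.61 (adjusted p 0.0486, limma) was just inside the threshold. It was −0.34 (adjusted p 0.104) without control replicate 3, the highest of its group, and lost its call as well without TcfEnR replicate 1 (adjusted p 0.107), 2 (0.155) or 3 (0.0639) and with quantile normalization repeated (0.0532). The third was near the bottom of the range in both groups and had a log2 fold change of −0.08 (adjusted p 0.762, limma).

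CELSR3, a cadherin of neurons that mouse axon tracts depend on, did not pass the test on its brightest probe set. It read 9.54, 9.75 and 9.97 in TcfEnR pools, against 10.59, 10.16 and 9.96 in control pools. Control replicate 3 lay within the range of the TcfEnR pools, and the other control pools lay above it. The log2 fold change was −0.48 (SE 0.19, 95% confidence interval −0.91 to −0.06, adjusted p 0.0569, limma), and it was −0.62 (adjusted p 0.0198) without control replicate 3.

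The other 4 CELSR3 probe sets went in different directions. The second had a log2 fold change of −0.43 (adjusted p 0.0949, limma) and the third −0.49 (adjusted p 0.0905, limma), with control replicate 3 the lowest of the control pools on both. On the fourth, which was called lower at −0.62 (SE 0.22, adjusted p 0.0414, limma), the signal was 8.18, 8.24 and 8.56 in TcfEnR pools and 9.46, 8.80 and 8.60 in control pools. The fifth went the other way, at 5.76, 5.46 and 5.11 in TcfEnR pools and 4.56, 4.69 and 4.79 in control pools, which is a rise of 0.76 on the log2 scale (SE 0.18, adjusted p 0.00643, limma).

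That rising CELSR3 probe set was near the bottom of the range in control pools. Its rise held with quantile normalization repeated, at 0.63 (adjusted p 0.0153), whereas the lower call of the fourth was lost at −0.39 (adjusted p 0.167) and the brightest probe set at −0.18 (adjusted p 0.464). The fourth also lost its call without TcfEnR replicate 1 (adjusted p 0.126), TcfEnR replicate 2 (0.118), control replicate 1 (0.0997) or control replicate 2 (0.0591). The level of CELSR3 in TcfEnR cells was thus not settled by its probe sets.

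**Figure D2:**
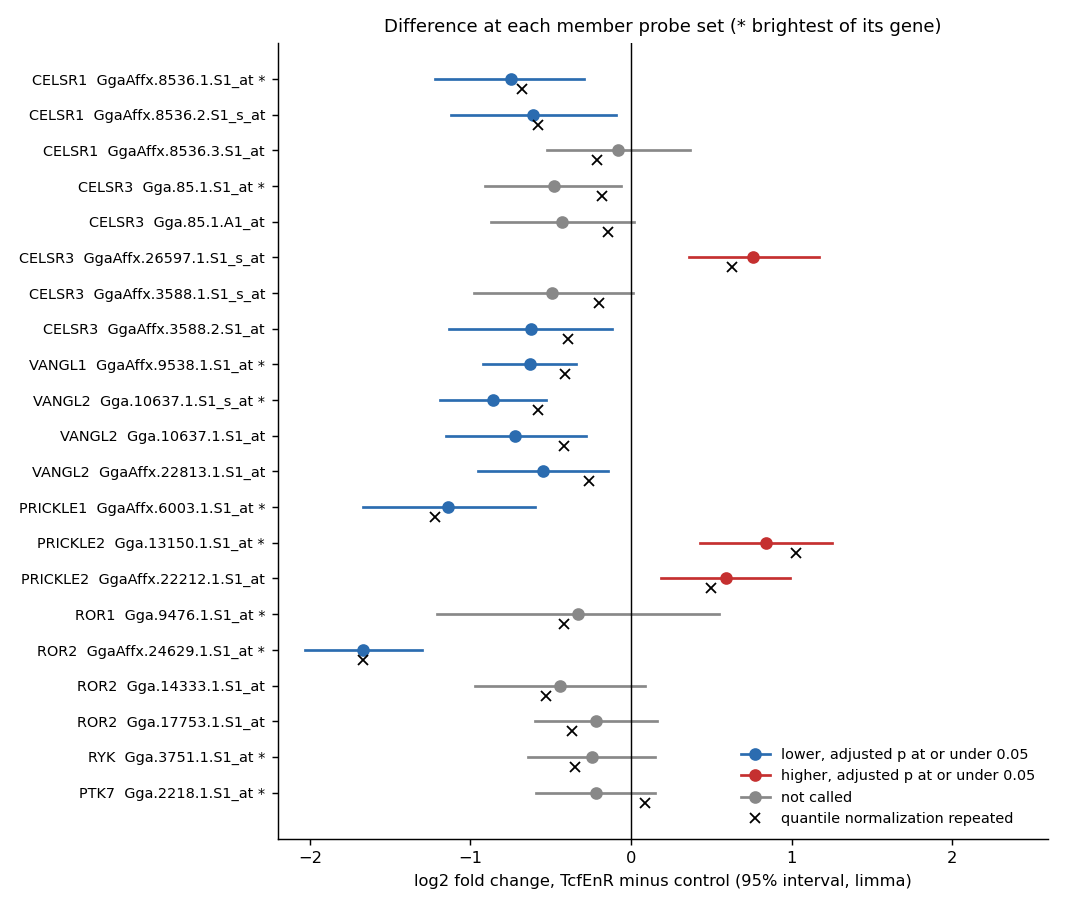
Log2 fold change, TcfEnR minus control, of all 21 probe sets of the 10 genes (horizontal axis) with 95% confidence intervals from limma, and crosses for the value with quantile normalization repeated. The 9 probe sets called lower lie left of 0, the 3 called higher lie right of 0, and the CELSR3 probe sets are found on both sides.

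Control replicate 3, without which the brightest CELSR3 probe set passed the test, was the control pool with the least neuronal and the most progenitor signal. The summed linear signal of the 12 pan-neuronal markers measured was 4246 to 4857 in TcfEnR pools, against 38178, 29329 and 18415 in control replicates 1, 2 and 3. That of 16 progenitor markers was 12766 to 14737 in TcfEnR pools, against 31020, 31581 and 39966 in the same control pools. On their brightest probe sets, CELSR3, PRICKLE1, VANGL1, PTK7 and PRICKLE2 were lowest in control replicate 3 among control pools, while CELSR1, VANGL2 and ROR2 were highest there.

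These markers also moved with the groups. Of the 12 pan-neuronal markers, 10 were lower and none higher in TcfEnR. MAPT and GAP43, named after their values were seen, were not called. Of the 16 progenitor markers, 13 were lower and none higher. Over all genes, 32.6% were lower and 25.0% higher. SOX2, a transcription factor of neural progenitors, read 8.26, 8.60 and 8.60 in TcfEnR pools, against 10.18, 10.26 and 11.22 in control pools. All member genes that fell therefore fell beside both kinds of neural marker, whose part in these results was not tested.

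Markers of other cells and of stress differed too, by counts that stand beside 32.6% of all genes lower and 25.0% higher. Of 15 endothelium and blood markers 6 were higher and 1 lower. Between groups the summed signals overlapped, at 4237 to 19740 in TcfEnR pools and 3218 to 4736 in control pools. The largest called rises were those of EGFL7 at 1.89, CD74 at 1.49 and CSF1R at 1.21. HBA1, a haemoglobin chain, read 10.60, 12.03 and 6.76 in TcfEnR pools and 9.21, 8.70 and 8.53 in control pools. HBA1 was not called (adjusted p 0.462, limma), and nor was PECAM1 (adjusted p 0.065, limma). Of 7 neural crest and Schwann markers 5 were lower and 1 higher. Their summed signals overlapped, at 4105 to 5981 in TcfEnR pools and 4937 to 6691 in control pools. Their mean log2 signals did not overlap, at 7.68 to 7.86 in TcfEnR pools and 9.02 to 9.32 in control pools. Of 11 floor plate and roof plate markers 6 were lower and 2 higher (1591 to 1745 in TcfEnR pools and 2550 to 3380 in control pools). Of 14 stress genes 10 were higher and 1 lower, with summed signals of 62809 to 70010 in TcfEnR pools and 25563 to 26788 in control pools. The part of these in the values of the 10 genes was not tested.

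**Figure D3:**
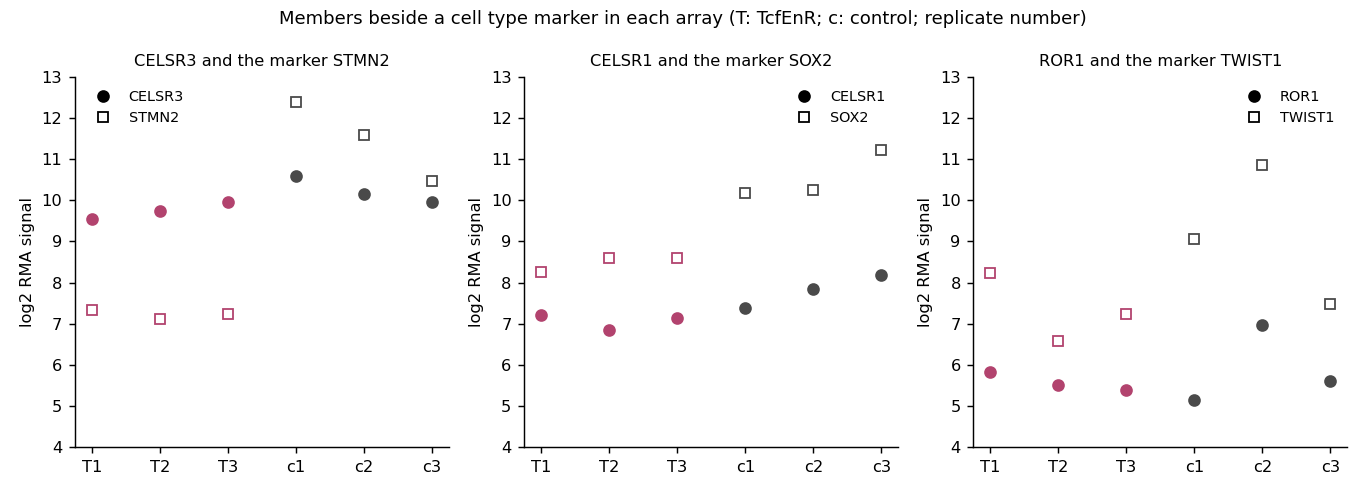
Log2 RMA signal (vertical axis) of CELSR3 with the neuronal marker STMN2, CELSR1 with the progenitor marker SOX2, and ROR1 with the mesenchyme marker TWIST1 in each array (T1 to T3, TcfEnR pools; c1 to c3, control pools). CELSR3 and STMN2 were both lowest among control pools in replicate 3 (9.96 and 10.48), CELSR1 and SOX2 both highest there (8.19 and 11.22), and ROR1 and TWIST1 both highest in control replicate 2 (6.96 and 10.87). Over the control pools CELSR3 and STMN2 ran in the same order, as did CELSR1 and SOX2, while ROR1 and TWIST1 did not. The pairs drawn were set by hand from the members and marker lists, and 3 pools can share an order by chance. PRICKLE2, not drawn, also ran in the order of STMN2 (8.05, 7.81 and 7.43), and it rose in TcfEnR pools. VIM, a progenitor marker named after its values were seen, ran opposite to SOX2 (11.54, 11.47 and 11.28). ROR1 was lowest in control replicate 1 (5.15), where TWIST1 was 9.06. Among TcfEnR pools CELSR3 was lowest (9.54) where STMN2 was highest (7.33), and CELSR1 was highest (7.20) where SOX2 was lowest (8.26).

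Relatives were compared within each array to ask whether they responded by different amounts. The log2 difference of their brightest probe sets was taken in each array relative to its mean in control pools, so that no level of a probe set was set against that of another. For PRICKLE2 minus PRICKLE1, it was 1.92, 1.78 and 2.23 in TcfEnR pools, against −0.29, 0.15 and 0.14 in control pools. The measured shift towards PRICKLE2 was 1.98 (SE 0.20), and the groups did not overlap. PRICKLE1 was near the bottom of the range in TcfEnR pools, so that the size of this shift may be only a bound, which was not tested. The two-sided exact permutation p was 0.1, the smallest that 3 against 3 arrays allow, and 0.267 adjusted over the 4 pairs, so that no pair could pass 0.05.

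For ROR2 minus ROR1, the difference was −1.68, −1.11 and −1.22 in TcfEnR pools, against 0.57, −1.15 and 0.58 in control pools. Control replicate 2, where ROR1 was high, lay among the TcfEnR pools, and the shift of −1.34 (SE 0.60) had an exact permutation p of 0.2. VANGL2 minus VANGL1 shifted by −0.23 (SE 0.16, exact permutation p 0.2) and CELSR3 minus CELSR1 by 0.27 (SE 0.45, exact permutation p 0.6). Their groups overlapped, so that the falls of VANGL1 and VANGL2 could not be told apart in size.

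**Figure D4:**
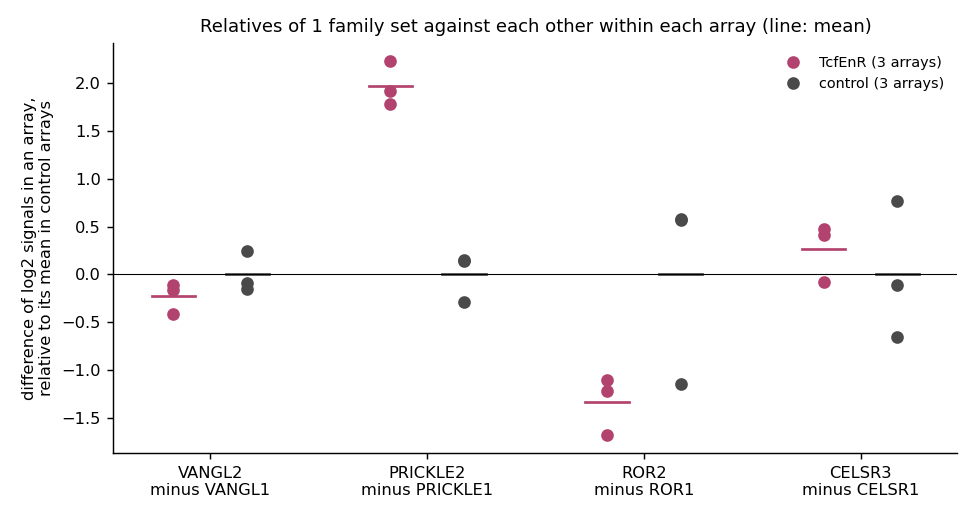
Difference of log2 signals of 2 relatives within each array, relative to its mean in control pools (vertical axis), with TcfEnR pools to the left of control pools and lines at the group means. Only the PRICKLE pair separates the groups, with TcfEnR pools between 1.78 and 2.23, and the other 3 pairs overlap.

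Genes with a like profile were looked for over the 6 arrays, by the root mean square difference of log2 values after each gene was centred on its own mean. The nearest gene to ROR2 was TERF1, at 0.0638, to VANGL1 GRB2, at 0.0374, and to VANGL2 DCTN6, at 0.0495. For PRICKLE1 it was SLC16A7, at 0.0766, for PRICKLE2 MUSTN1, at 0.0706, and for CELSR1 DDX27, at 0.0661. The called genes' own profiles had root mean squares of 0.324 to 0.849. Each neighbour was picked as the closest of all genes, so that a small difference follows from the search itself. PTK7, which was not called, had a neighbour at 0.0297. The 6 arrays form 2 groups and give few independent points.

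Of 66 further genes of noncanonical Wnt and planar polarity signalling that were listed, 57 were measured. They were chosen with earlier results of these data known, so that their shares are no independent support. In TcfEnR cells 28 were lower, or 49.1%, against 32.6% of all genes, and 10 were higher, or 17.5%, against 25.0%, with a median log2 fold change of −0.40. Quantile normalization repeated on the deposited values gave 14 lower, or 24.6%, against 25.1% of all genes. Past 4-fold, 1 was lower, against 3.46% of all genes, and 5 were higher, against 1.55%.

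The list of 14 ligands and cofactors held Wnt ligands, Frizzled receptors and glypicans together. Of these 14, 8 were lower, or 57.1%, against 32.6% of all genes, and 3 higher, or 21.4%, against 25.0%. The other 3 were not called, and the median was −0.71. FZD7, a Frizzled receptor, read 8.92, 8.91 and 8.95 in TcfEnR pools, against 11.01, 10.97 and 11.60 in control pools. The groups stood far apart, and the difference was −2.27 (SE 0.18, adjusted p 2.13e-05, limma). FZD3, the Frizzled receptor that acts with Celsr3 in mouse axon guidance, gave 9.80, 9.82 and 10.23 in TcfEnR pools and 11.53, 11.65 and 11.49 in control pools, a log2 fold change of −1.60 (adjusted p 5.53e-05, limma).

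The ligands WNT7A at −1.73, WNT4 at −1.46 and WNT7B at −1.45 fell as well. WNT5A, a ligand of ROR2 and RYK, is named after its values were seen. It read 7.81, 7.81 and 7.75 in TcfEnR pools, against 8.16, 8.97 and 8.87 in control pools, which is a difference of −0.88 (SE 0.21, adjusted p 0.00671, limma). It was called lower on 3 of its 4 probe sets. The 3 ligands of the list that rose, also named after their values were seen, were WNT11B at 0.97, WNT11 at 0.79 and WNT9A at 0.61. In control pools WNT11B and WNT9A were near the bottom of the range, with means of 4.72 and 4.94. WNT11 was called higher on 1 of its 3 probe sets.

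Of 15 cytoplasmic partners of the core proteins, 6 were lower, or 40%, against 32.6% of all genes. Another 2 were higher, or 13.3%, against 25.0% of all genes. The other 7 were not called, and the median was −0.37. The 2 that rose did so strongly. LLGL2, a basolateral polarity protein, read 10.54, 11.00 and 10.40 in TcfEnR pools, against 7.99, 8.07 and 8.25 in control pools (log2 fold change 2.54, adjusted p 1.21e-05, limma). NOS1AP, an adaptor that binds neuronal nitric oxide synthase, read 9.28, 9.15 and 9.37 in TcfEnR pools, against 7.52, 7.11 and 6.33 in control pools (log2 fold change 2.28, adjusted p 0.000158, limma).

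The partners that fell moved less. INVS, the ciliary protein inversin, had a log2 fold change of −0.90, INTU, a planar polarity effector of cilia, −0.72, and SMURF2, a ubiquitin ligase, −0.59. Of the 3 probe sets of SMURF2, 1 was higher, and its fall stood at −0.33 (adjusted p 0.141, limma) with quantile normalization repeated.

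Of 28 effectors downstream of the receptors, 14 were lower, or 50%, against 32.6% of all genes. Another 5 were higher, or 17.9%, against 25.0% of all genes. The other 9 were not called, and the median was −0.46. DAAM2, a formin that links Dishevelled to actin, read 5.74, 5.83 and 6.0 in TcfEnR pools, against 7.81, 7.93 and 7.71 in control pools (log2 fold change −1.96, adjusted p 1.19e-05, limma), although 1 of its 3 probe sets was higher. Its relative DAAM1, named after its values were seen, had a log2 fold change of −1.06 (adjusted p 0.00229, limma). PRKCB, a protein kinase C, and CAMK2A, a calcium-dependent kinase, rose by 2.31 (adjusted p 6.19e-05, limma) and 2.13 (adjusted p 0.000546, limma) on the log2 scale. Their relatives, named after their values were seen, did not share one direction. CAMK2B rose by 0.81 and CAMK2D fell, at −0.96 (adjusted p 0.00107, limma), while CAMK2G at −0.70 and PRKCA at −0.06 were not called.

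**Figure D5:**
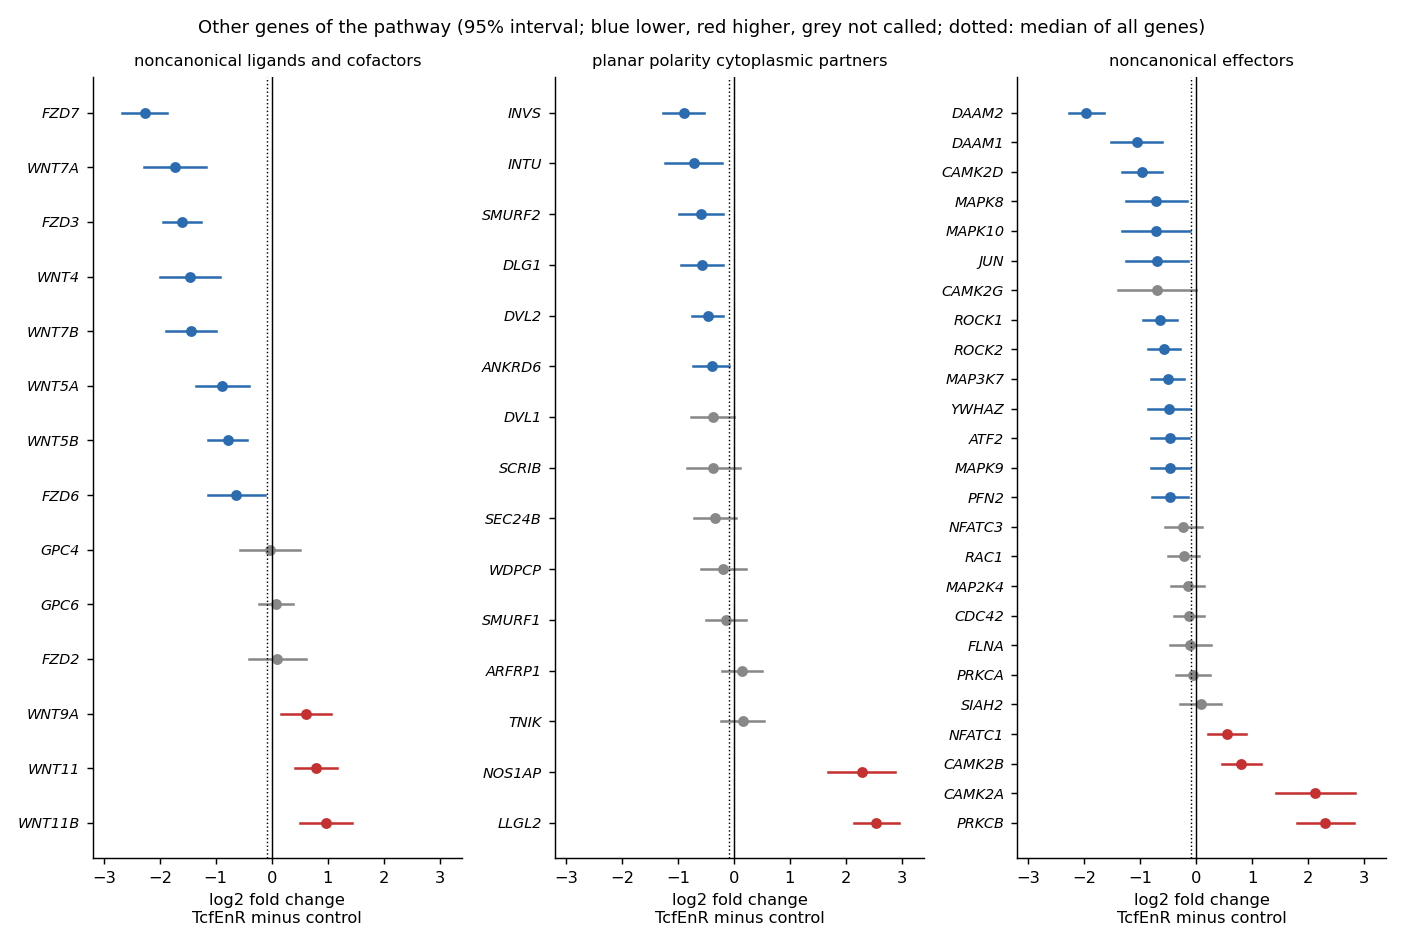
Log2 fold change, TcfEnR minus control (horizontal axis), of 54 of the 57 measured genes of the 3 pathway lists, each by its brightest probe set with its 95% confidence interval, and a dotted line at the median of all genes (−0.09). Genes called lower lie left of 0 (27), genes called higher lie right of 0 (9), and the 4 drawn past 4-fold on the right are LLGL2, PRKCB, NOS1AP and CAMK2A.

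Shares of calls differed with signal level when all genes were split into 5 equal groups by their mean over the arrays. In the dimmest group, which held PRICKLE1, RYK and ROR1, 13% were lower and 36.4% higher in TcfEnR. In the brightest group, which held VANGL2, PTK7 and CELSR3, 42.8% were lower and 10.6% higher. The shares were 26.6% lower and 35.6% higher in the group of ROR2, 36.7% lower and 25.9% higher in that of PRICKLE2 and CELSR1, and 43.7% lower and 16.6% higher in that of VANGL1. PRICKLE1 and ROR2 thus fell in groups with more genes higher than lower, PRICKLE2 rose in a group with more genes lower, and VANGL1, VANGL2 and CELSR1 fell in groups with more genes lower. The median log2 fold change was 0.25 in the dimmest group, 0.12 in that of ROR2 and −0.16 in that of PRICKLE2 and CELSR1. It was −0.31 both in the group of VANGL1 and in the brightest, where PTK7, at −0.22, lay above it.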

How the data were processed

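RNA from 3 TcfEnR and 3 control pools was hybridized to GeneChip Chicken Genome Arrays. The log2 values deposited by the authors were made by RMA, which subtracts background, quantile normalizes and summarises probes. The software version and a genome build are not given in the sources used here. Quantile normalization can move a shared shift of bright genes, and it was repeated as an alternative. In the deposited values the 95th percentile was 10.16 to 10.21 in TcfEnR arrays and 10.49 to 10.52 in control arrays. The 5th percentile was 3.38 to 3.39 in TcfEnR arrays and 3.24 to 3.30 in control arrays. The part of this difference in range in the falls of bright genes was not tested. Probe sets were named through the array's annotation, in which 9 of the 10 gene identifiers were in the RefSeq table and that of CELSR3 was not, and 96 control probe sets were left out.

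Groups were compared with limma 3.58.1 in R 4.3.3 over 38439 probe sets, with Benjamini-Hochberg adjustment, and tested on simulated data. Replicates were separate pools, and 3 arrays per group limit the precision. The labels number the replicates and name no pairing. Deviations of arrays with the same number correlated at −0.042, 0.016 and −0.055 over all probe sets. Such values may be mostly noise, so that they cannot exclude a pairing. Alternatives changed scaling, filter, variance model, block, gene summary and arrays. Besides the members, up to 5 called genes of each pathway list and up to 3 of each marker list with the largest changes could be named, with 8 defining markers and the nearest gene of each called member. A few genes of the effector list are not reported here by name, though its counts include them. The members and lists were chosen with earlier results of these data known.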

Additional observations from a re-analysis of the deposited data

How the results depend on the processing

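Repeating quantile normalization on the deposited values left 5 member probe sets lower, or 23.8%, against 22.8% of all probe sets. It left 14 pathway genes lower, or 24.6%, against 25.1% of all genes. Leaving out each array in turn gave 5 to 10 member probe sets lower and 2 to 3 higher, 0 past 4-fold, 4 to 6 member genes lower and 1 higher, and 18 to 29 pathway genes lower and 9 to 10 higher. In the same fits 21.8% to 26.2% of all probe sets were lower and 20.8% to 26.8% higher. By gene, these shares were 27.1% to 32.1% lower and 19.7% to 25.1% higher. The 18 pathway genes came without TcfEnR replicate 2, at 31.6%, against 27.4% of all genes. Shifts within pairs ran from −0.30 to −0.11 (VANGL), 1.83 to 2.08 (PRICKLE), −1.91 to −1.05 (ROR) and −0.06 to 0.65 (CELSR). CELSR3 minus CELSR1 was −0.06 without control replicate 3. Signs turned for PTK7, at 0.09 with quantile normalization repeated, and with single arrays left out for ROR1 (−0.71 to 0.20, the last without control replicate 2), for the CELSR1 probe set near the bottom of the range (−0.24 to 0.07, above 0 without TcfEnR replicate 2, at 0.01, or control replicate 3) and for HBA1 (−0.13 to 2.50, the first without TcfEnR replicate 2). The cause was not tested.

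With the replicate number as a block, 8 member probe sets were lower, or 38.1%, against 25.2% of all probe sets. The fourth CELSR3 probe set then had an adjusted p of 0.0625 (limma). Of the pathway genes 25 were lower, or 43.9%, against 30.8% of all genes. With a variance trend, 10 member probe sets were lower, or 47.6%, against 26.5% of all probe sets. By gene, 6 members were lower, against 33.1% of all genes, with CELSR3 added at an adjusted p of 0.046 (limma). Taking the mean of all probe sets of a gene left 4 member genes lower, against 4117 of all 13009 genes. CELSR1 then stood at −0.48 (adjusted p 0.0618, limma). The brightest probe sets of ROR2, VANGL1, VANGL2, PRICKLE1 and PRICKLE2 kept their calls under every alternative run. PRICKLE1 passed the filter on dim signal only through its control pools, with a mean of 6.30 there against 5.16 in TcfEnR pools. The filter therefore adds no support for its fall. Of the 21 probe sets, 17 passed the filter on dim signal, and values near the bottom of the range may bound how deep a fall can be seen.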
